A study of Homo sapiens with 2 samples.

Results

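The serpins are a superfamily of proteins named as serine protease inhibitors and grouped into clades by sequence. The genes described here were those whose symbol is SERPIN followed by a clade letter and a number, without pseudogenes, among genes with a probe set that names them alone. There were 30 such genes of 18377 measured, 10 of them in clade A, 11 in clade B and 9 in clades C to I.

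EBC1-R is a PHA-665752-resistant subline of EBC1, obtained by growing EBC1 cells in increasing concentrations of this MET kinase inhibitor, keeping the survivors of the highest one, and maintaining them in 3 µM inhibitor. EBC1 is the parental human lung carcinoma line, derived from a squamous carcinoma and known for extra copies of MET, the gene of the inhibited kinase. Both were grown in medium with fetal bovine serum, and the labels do not say whether EBC1-R is 1 clone. Total RNA of each line was hybridised to 1 array; the extraction protocol names an Affymetrix array of another design, but the labelling protocol and the probe annotation are those of a whole-transcript array. The study set out to find what accompanies resistance to the inhibitor; resistance and growth in the inhibitor cannot be told apart in this design. With 1 array per line no value has a replicate error and no difference was tested, so differences are given as sizes.

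An inhibitory serpin presents an exposed loop that a protease cleaves as if it were a substrate. The cleaved serpin then changes shape and traps the protease in a covalent complex, so each molecule works once. Clade A proteins are mostly secreted into plasma by the liver and include transporters of hormones as well as inhibitors. Clade B proteins lack a classical signal peptide, act largely inside cells, and include several made by squamous epithelium and blood cells. Some serpins inhibit no protease and act as carriers, chaperones or growth regulators.

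Levels are the deposited log2 intensities, and a difference is the log2 level in EBC1-R minus that in EBC1. A gene was called when it differed by at least 1 log2 unit, which is 2-fold. Across all 18377 genes the central 95% of differences lay between -0.65 and 0.75, with a median of -0.03. The 6 epithelial markers lay between 11.25 and 12.06 in EBC1-R and between 11.33 and 12.83 in EBC1. Of these, 5 were lower in EBC1-R, with a median difference of -0.47, led by the keratins KRT19 (1.86-fold), KRT8 (1.77-fold) and KRT18 (1.72-fold). The 6 measured squamous markers reached 6.97 in EBC1-R and 7.26 in EBC1, with the largest differences in KRT14 (-0.30) and DSC3 (0.21). KRT5 was at 6.11 in EBC1-R and 6.17 in EBC1, DSG3 was at 5.13 in EBC1-R and 5.19 in EBC1, and TP63 and KRT6A were not analysed here.

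Serpins differed most at their upper end. SERPINB7, SERPINB4, SERPINB3 and SERPINA3 were 6.03-fold, 4.86-fold, 4.22-fold and 3.62-fold higher in EBC1-R, and no serpin was 2-fold lower. These 4 of 30 genes are 13.3%, beside 1.26% of all measured genes that were at least 2-fold higher; the 0 of 30 that were 2-fold lower stand beside 0.887% of all genes. At a threshold of 1.5-fold, 5 serpins were higher (4.41% of all genes) and 3 were lower (3.16% of all genes). The remaining 22 differed by less than 1.5-fold.

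**Figure D1:**
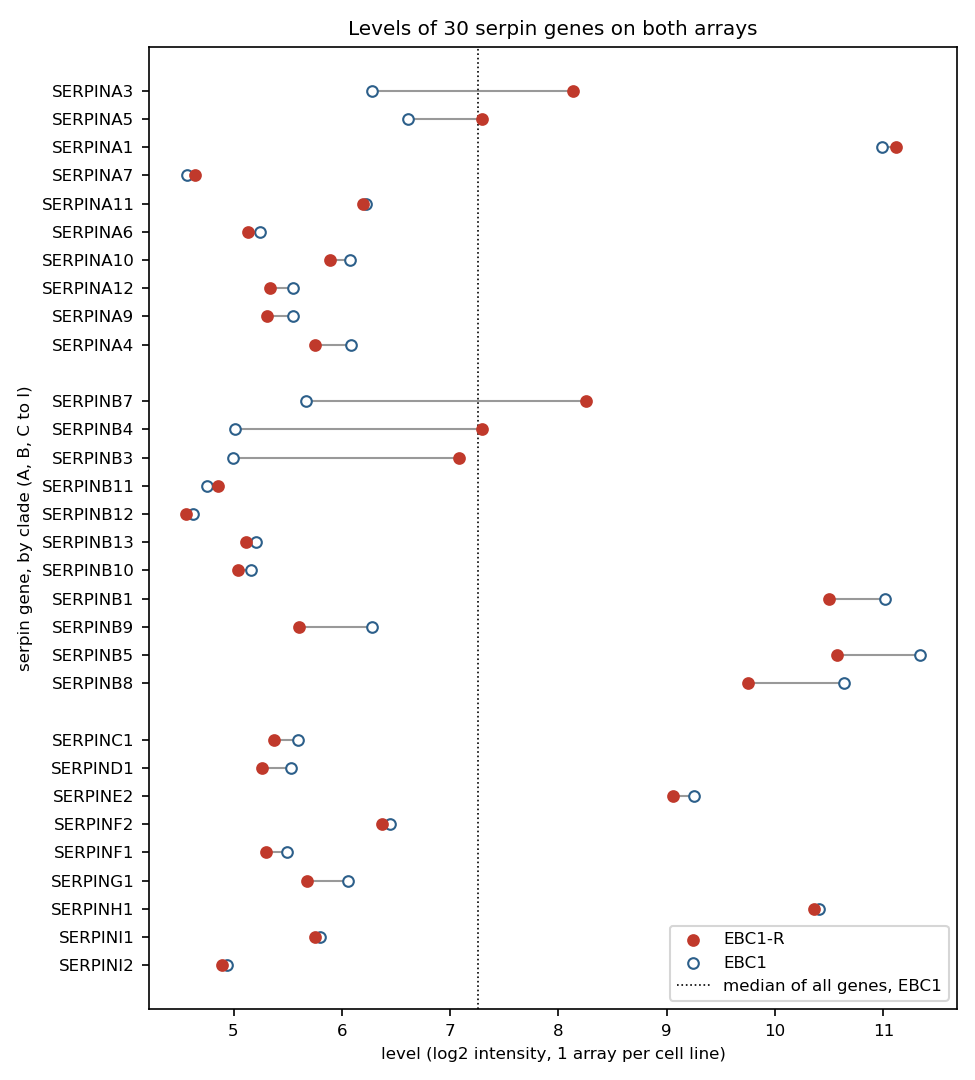
Log2 intensity (horizontal axis) of each of the 30 serpin genes on the EBC1-R array (filled) and the EBC1 array (open), 1 array each, grouped by clade, with the dotted line at the median of all genes in EBC1. SERPINA3, SERPINB7, SERPINB4 and SERPINB3 have the longest lines, with EBC1-R to the right of EBC1, while SERPINB5, SERPINB8, SERPINB1 and SERPINB9 have EBC1-R to the left.

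SERPINB3 and SERPINB4 lie side by side on chromosome 18 and are close paralogs, first known as the squamous cell carcinoma antigens. Their promoters are shown because they are nearly identical in sequence and both genes were called. RefSeq gives the windows from 250 bases before to 50 bases after each gene start, on the minus strand of GRCh38.p14, at chr18:63661844-63662143 for SERPINB3 and chr18:63644207-63644506 for SERPINB4. Written 5′ to 3′ in lower case, with capitals at the 4 positions where they differ, they read as follows.
SERPINB3: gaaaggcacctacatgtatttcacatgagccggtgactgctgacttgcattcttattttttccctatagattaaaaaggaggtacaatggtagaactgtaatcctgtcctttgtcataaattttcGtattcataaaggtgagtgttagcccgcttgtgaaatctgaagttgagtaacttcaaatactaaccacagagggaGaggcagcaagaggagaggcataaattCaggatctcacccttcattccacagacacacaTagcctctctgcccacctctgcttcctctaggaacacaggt
SERPINB4: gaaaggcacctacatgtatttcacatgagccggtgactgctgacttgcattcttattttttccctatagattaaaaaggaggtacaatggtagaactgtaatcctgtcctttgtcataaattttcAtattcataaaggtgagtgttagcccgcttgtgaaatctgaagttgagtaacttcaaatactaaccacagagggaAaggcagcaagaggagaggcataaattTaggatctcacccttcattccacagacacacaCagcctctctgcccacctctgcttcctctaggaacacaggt
In a global alignment 296 of 300 bases were identical, or 98.7%. Among 231 pairs of promoters from 22 serpin genes the median identity was 45.1%, and the pair with the next highest value, SERPINA5 and SERPINB5, reached 53.1%. Each gene has 1 probe set on the array, annotated to it alone; whether either probe set also binds the other transcript was not tested, and the promoters do not bear on it.

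In clade B, the intracellular serpins, 4 of 11 genes were higher in EBC1-R and 7 were lower, with a median difference of -0.09. The genes divided into 3 that were over 4-fold higher, 4 that were 1.43-fold to 1.85-fold lower, and 4 with differences between -0.12 and 0.10. SERPINB7, also called megsin, is known from kidney mesangial cells and from the upper layers of the skin. Its level was 8.26 in EBC1-R and 5.67 in EBC1, a difference of 2.59, and it ranked as number 17 of all 18377 genes by increase. SERPINB4, an inhibitor of cathepsin G and mast cell chymase, was at 7.29 in EBC1-R and 5.01 in EBC1, a difference of 2.28. SERPINB3, an inhibitor of the cysteine proteases cathepsin L, K and S, was at 7.08 in EBC1-R and 5.0 in EBC1, a difference of 2.08. By increase these 2 genes ranked 23 and 31 of all genes.

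The lower genes of clade B included 3 that were above the median of all genes on both arrays. The epithelial keratins KRT19, KRT8 and KRT18, which are no serpins, were lower too, at -0.89, -0.83 and -0.78. The other epithelial markers differed less, with KRT7 at -0.16, EPCAM at -0.08 and CDH1 at 0.10. The part of these markers in the serpin differences was not tested. SERPINB8, an inhibitor of the proprotein convertase furin, had the largest decrease of any serpin and was at 9.75 in EBC1-R and 10.64 in EBC1, a difference of -0.88 or 1.85-fold. SERPINB5, known as maspin, is a serpin without protease inhibition that was described as a tumour suppressor in breast epithelium. It was at 10.57 in EBC1-R and 11.34 in EBC1, which is 1.70-fold lower. SERPINB1, an inhibitor of neutrophil elastase, cathepsin G and proteinase 3, was at 10.50 in EBC1-R and 11.02 in EBC1, which is 1.43-fold lower. SERPINB9, which protects cells from granzyme B, was at 5.60 in EBC1-R and 6.28 in EBC1, a difference of -0.68, and lay under the median of all genes on both arrays.

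The other 4 clade B genes were dim on both arrays and differed little. SERPINB10, a serpin of blood-forming cells, was at 5.04 in EBC1-R and 5.16 in EBC1. SERPINB13, an inhibitor of cathepsins L and K in squamous epithelium, was at 5.12 in EBC1-R and 5.21 in EBC1. Of its squamous relatives SERPINB3 and SERPINB4, both were over 4-fold higher, so the differences were not shared across the squamous members. SERPINB12, an inhibitor of trypsin-like proteases, was at 4.56 in EBC1-R and 4.63 in EBC1, and SERPINB11 was at 4.85 in EBC1-R and 4.76 in EBC1.

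**Figure D2:**
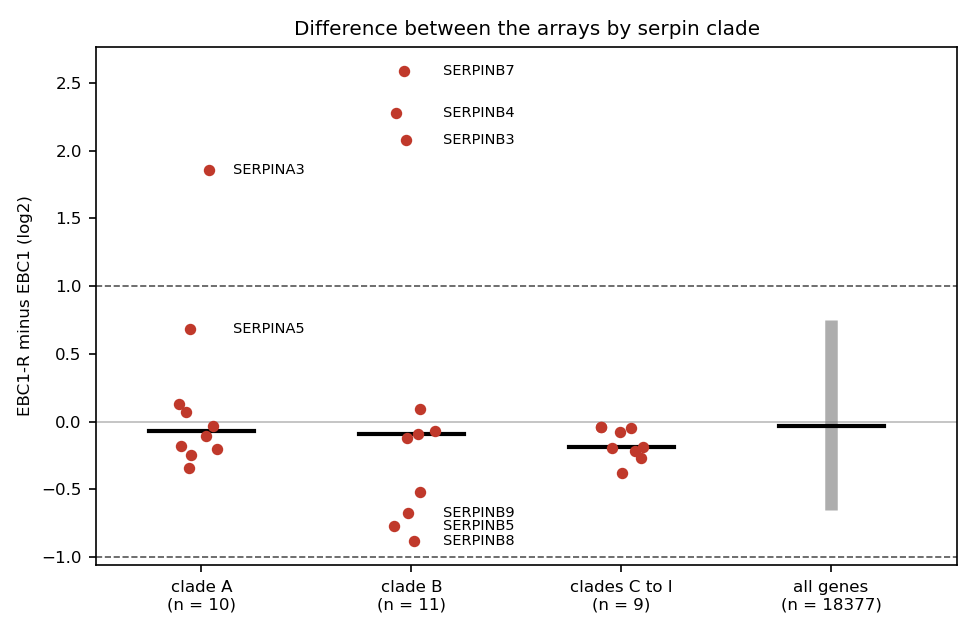
Difference between EBC1-R and EBC1 (log2, vertical axis) of each serpin gene (points) by clade, with a short black line at each median, beside the central 95% of all 18377 genes (grey bar). Dashed lines mark 2-fold. In clade B 3 genes lie above 2 and 4 lie between -0.88 and -0.52, while the 9 genes of clades C to I lie between -0.38 and -0.04.

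In clade A, the mainly hepatic and secreted serpins, 4 of 10 genes were higher in EBC1-R and 6 were lower, with a median of -0.07. SERPINA3, or alpha-1-antichymotrypsin, is an acute-phase inhibitor of cathepsin G and chymase. Its level was 8.13 in EBC1-R and 6.28 in EBC1, a difference of 1.85 and rank 40 by increase. SERPINA5, the protein C inhibitor, was at 7.29 in EBC1-R and 6.61 in EBC1, a difference of 0.68 and under the 2-fold threshold. SERPINA1, or alpha-1-antitrypsin, the main plasma inhibitor of neutrophil elastase, was at 11.12 in EBC1-R and 10.99 in EBC1. It was the 1 clade A gene above the median of all genes on both arrays, and its difference of 0.13 was small beside that of SERPINA3.

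The other clade A genes were under the median of all genes on both arrays, with differences from -0.34 to 0.07. SERPINA4, or kallistatin, an inhibitor of tissue kallikrein, was at 5.75 in EBC1-R and 6.09 in EBC1. SERPINA10, which inhibits factor Xa together with protein Z, was at 5.89 in EBC1-R and 6.08 in EBC1. SERPINA12, or vaspin, an adipose tissue product that inhibits the kallikrein KLK7, was at 5.34 in EBC1-R and 5.55 in EBC1. Their differences of -0.34, -0.18 and -0.20 are within the central 95% of all genes. The hormone carriers SERPINA6, which binds cortisol, and SERPINA7, which binds thyroxine, were at 5.14 and 4.64 in EBC1-R and at 5.25 and 4.57 in EBC1. SERPINA9, known from germinal centre B cells, was at 5.31 in EBC1-R and 5.55 in EBC1. SERPINA11 was at 6.19 in EBC1-R and 6.23 in EBC1, a difference of -0.03 that became 0.03 once a lowess trend on intensity was removed. Hepatocyte markers were low too: the 12 in the list lay between 4.61 and 6.82 in EBC1-R and between 4.53 and 7.09 in EBC1, and 0 of 12 differed 2-fold.

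All 9 genes of clades C to I were lower in EBC1-R as deposited, by at most 0.38, with a median of -0.19. After removal of the lowess trend SERPINI1 turned to 0.01 and the other 8 stayed lower. Over all serpins 22 of 30 were lower by any amount as deposited, against 55.5% of all genes. After lowess 20 of 30 were lower, and the share of all genes was not counted under that setting. SERPINH1, or HSP47, is a chaperone for collagen in the endoplasmic reticulum and inhibits no protease. It was at 10.36 in EBC1-R and 10.40 in EBC1, a difference of -0.04. SERPINE2, or protease nexin 1, an inhibitor of thrombin and of the urokinase activator of plasminogen, was at 9.06 in EBC1-R and 9.25 in EBC1. These 2 genes were above the median of all genes on both arrays, and the other 7 were below it on both.

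The plasma inhibitors of coagulation and complement were among those 7. SERPING1, the C1 inhibitor, had the largest difference in the group and was at 5.68 in EBC1-R and 6.06 in EBC1. SERPINC1, or antithrombin, was at 5.38 in EBC1-R and 5.59 in EBC1, and SERPIND1, or heparin cofactor II, was at 5.26 in EBC1-R and 5.53 in EBC1. SERPINF2, the plasmin inhibitor alpha-2-antiplasmin, was at 6.37 in EBC1-R and 6.45 in EBC1. SERPING1 was 1.30-fold lower, and the other 3 differed by less. SERPINF1, an anti-angiogenic factor known as PEDF, was at 5.30 in EBC1-R and 5.49 in EBC1. SERPINI1, or neuroserpin, which inhibits the tissue activator of plasminogen in the nervous system, was at 5.75 in EBC1-R and 5.80 in EBC1. SERPINI2, known from pancreas, was at 4.89 in EBC1-R and 4.94 in EBC1.

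All 4 called serpins were below the median of all genes in EBC1, at percentiles 6.9 for SERPINB3, 7.2 for SERPINB4, 18.8 for SERPINB7 and 31.3 for SERPINA3. Whether these EBC1 values exceed background is not known, so a difference that starts there can understate the change in transcript. Of the 24 serpins below that median in EBC1, 4 were at least 2-fold higher, or 16.7%, beside 1.27% of the 9188 measured genes below it. In EBC1-R, SERPINB7, SERPINA3, SERPINB4 and SERPINA5 stood at or above the array's median of 7.29, which no one of them did in EBC1. Markers of cell types other than epithelium did not differ 2-fold. The leukocyte list ranged from 4.65 to 11.45 in EBC1-R and from 4.56 to 11.04 in EBC1, with CD68 the bright member and PTPRC at 4.65 in EBC1-R and 4.56 in EBC1. The fibroblast list reached 7.61 in EBC1-R and 7.64 in EBC1, the endothelial list 6.83 in EBC1-R and 7.08 in EBC1, and the platelet list 6.40 in EBC1-R and 6.55 in EBC1.

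Most of the measured serpins lie in 3 groups of neighbouring genes, and the called ones were not all next to each other. Order is given among measured protein-coding genes only, so genes without a probe set of their own are passed over. In that order, taken from the RefSeq table, the chromosome 18 group runs SERPINB5, SERPINB12, SERPINB13, SERPINB4, SERPINB3, SERPINB11, SERPINB7, SERPINB10 and SERPINB8. Its 2 ends, SERPINB5 and SERPINB8, were the serpins with the largest decreases. The 3 higher genes lay inside, with SERPINB11, at a difference of 0.10, between SERPINB3 and SERPINB7. The measured genes outside the group, VPS4B on the SERPINB5 side and CDH7 on the SERPINB8 side, differed by -0.30 and 0.11. The measured genes from SERPINB4 to SERPINB7 were thus higher, and the measured ones on both sides of them within the group were lower, several by small amounts.

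On chromosome 14 the order of the measured protein-coding genes was SERPINA10, SERPINA6, SERPINA1, SERPINA11, SERPINA9, SERPINA12, SERPINA4, SERPINA5 and SERPINA3. The 2 clade A genes at least 1.5-fold higher, SERPINA5 and SERPINA3, were neighbours at the end of this run, and GSC beyond SERPINA3 differed by -0.13. On chromosome 6 SERPINB1 and SERPINB9, neighbours among the measured protein-coding genes, were both lower, with differences of -0.52 and -0.68. The nearest measured protein-coding genes on either side were WRNIP1 at -0.08 and NQO2 at 0.09. Only the order of the genes is given from the RefSeq table, not their coordinates. No source names the build behind the array.

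**Figure D3:**
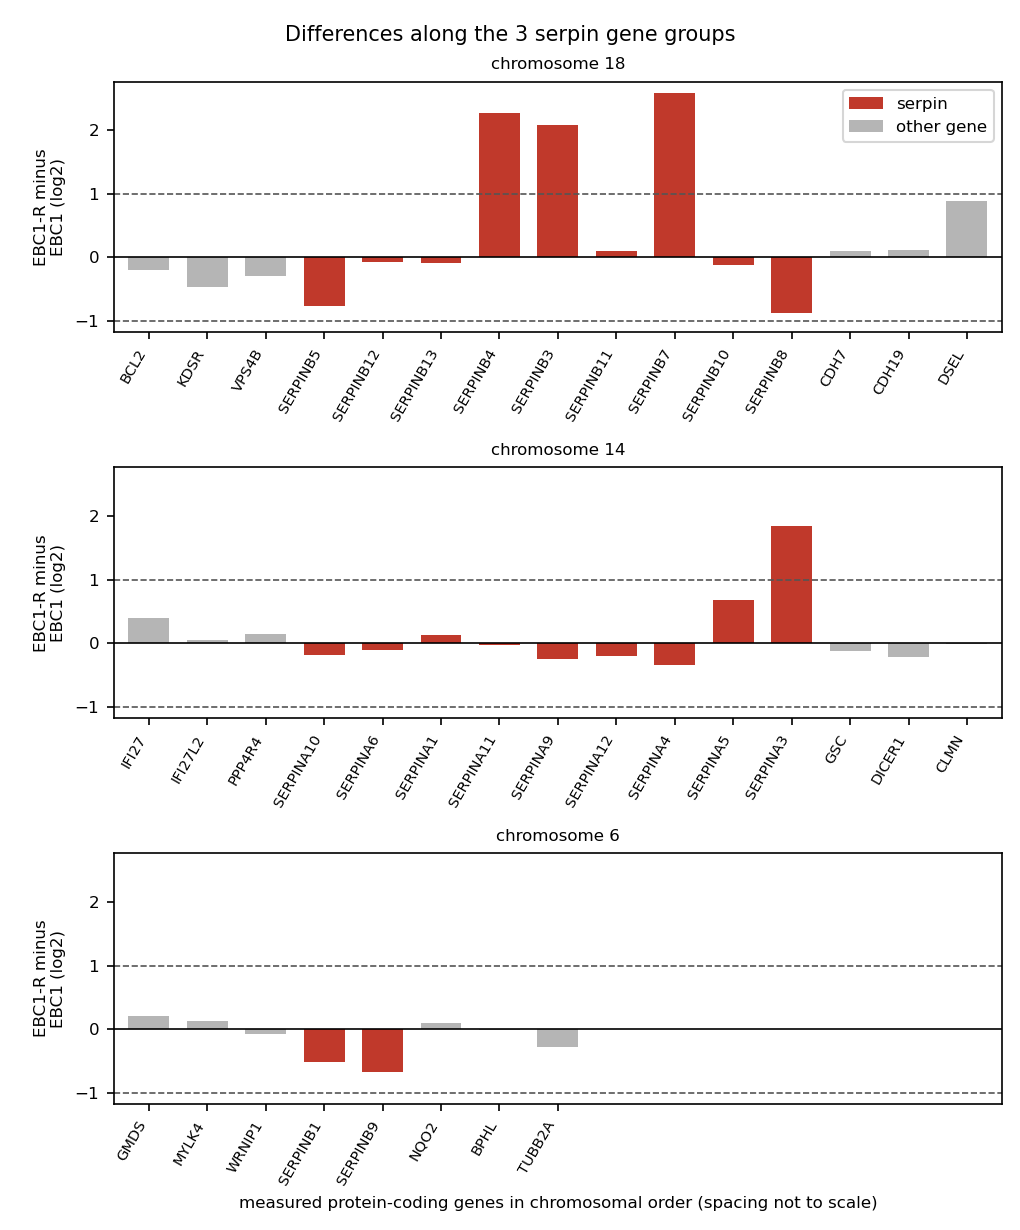
Difference between EBC1-R and EBC1 (log2, vertical axis) of measured protein-coding genes in chromosomal order along the serpin groups of chromosomes 18, 14 and 6, with 3 flanking genes on each side; spacing is not to scale. Serpins are red, other genes grey, and dashed lines mark 2-fold. SERPINB4, SERPINB3 and SERPINB7 stand out inside the chromosome 18 group, and SERPINA3 stands at the end of the chromosome 14 group.

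The promoter table held 34 windows for 24 of the 30 serpins, on either strand of which 4 short motifs were searched. They were the AP-1 letters TGANTCA, the STAT letters TTCNNNGAA, the hypoxia response element ACGTG and the TATA box TATAAA. AP-1 letters were in 7 of the 34 serpin windows, or 20.6%, and in 7.71% of all 35116 windows. STAT letters were in 9 serpin windows, or 26.5%, and in 7.66% of all. TATA boxes were in 26.5% of serpin windows and 11.5% of all, and the hypoxia element in 14.7% of serpin windows and 21.4% of all. The median GC content was 49.0% in the serpin windows and 58.7% in all windows, and its part in these shares was not tested. Windows of 1 gene can overlap and are not independent.

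AP-1 letters did not follow the direction of the differences. Of the called genes SERPINB7 held them, with 2 matches each in the windows of 2 of its 3 listed starts, whereas the windows of SERPINB3, SERPINB4 and SERPINA3 held none of the 4 motifs. SERPINB8 and SERPINB5, which were lower in EBC1-R, held AP-1 letters as well, as did SERPINB12, SERPINB13 and SERPINI2. The N of these letters allowed any base, and it was A or T in SERPINB5, SERPINB12 and SERPINI2. A pattern limited to C or G at N was not searched. A window of SERPINB7, which was higher, is set beside that of SERPINB8, which was lower, because both hold 2 AP-1 matches. The SERPINB7 window shown is at a later listed start, whereas the SERPINB8 window is at its gene start. The window at the SERPINB7 gene start holds 0 AP-1 matches and 1 STAT match. The SERPINB7 window is chr18:63777531-63777830 and the SERPINB8 window chr18:63969831-63970130, both on the plus strand of GRCh38.p14 in RefSeq. Capitals mark matches to any of the 4 motifs.
SERPINB7: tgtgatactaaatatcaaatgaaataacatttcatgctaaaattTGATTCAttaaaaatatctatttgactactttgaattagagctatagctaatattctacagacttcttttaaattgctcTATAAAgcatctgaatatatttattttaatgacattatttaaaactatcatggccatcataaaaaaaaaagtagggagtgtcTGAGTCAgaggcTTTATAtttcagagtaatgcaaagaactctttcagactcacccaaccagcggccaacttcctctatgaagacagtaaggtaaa
SERPINB8: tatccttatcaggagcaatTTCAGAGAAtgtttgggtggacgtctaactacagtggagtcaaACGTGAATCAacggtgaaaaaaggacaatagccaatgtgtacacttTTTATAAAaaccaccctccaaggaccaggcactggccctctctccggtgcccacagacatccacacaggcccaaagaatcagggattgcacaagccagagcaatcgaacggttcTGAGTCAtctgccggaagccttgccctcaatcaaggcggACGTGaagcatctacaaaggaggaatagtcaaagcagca
Counted with the start as +1, the AP-1 matches begin at -206 and -45 in SERPINB7 and at -185 and -28 in SERPINB8. The base at N is T at -206 and A at -185, and G in the matches at -45 and -28. The SERPINB8 match at -185 overlaps a hypoxia element, and its 2 TATA box matches overlap each other. A match is a run of letters and not evidence of binding.

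Proteases that serpins bind, and other protease inhibitors, were read from gene lists. Among 19 measured genes of plasminogen activation and coagulation, 0 were 2-fold higher and 2 were 2-fold lower, with a median of -0.15. The thrombin cofactor THBD was at 9.40 in EBC1-R and 11.05 in EBC1, and the urokinase gene PLAU, whose product SERPINE2 and SERPINA5 inhibit, was at 10.87 in EBC1-R and 12.16 in EBC1. PLAU was thus 2.45-fold lower where SERPINE2 differed by -0.19 and SERPINA5 by 0.68. F2R, a thrombin receptor, was at 6.44 in EBC1-R and 7.19 in EBC1.

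The granule proteases of blood cells, targets of SERPINA1, SERPINA3, SERPINB1, SERPINB4 and SERPINB9, were not 2-fold different in 10 of 10 measured genes. CTSG was at 5.18 in EBC1-R and 5.24 in EBC1, ELANE at 7.43 in EBC1-R and 7.49 in EBC1, and CMA1, the chymase, at 5.30 in EBC1-R and 5.54 in EBC1. GZMB was at 6.54 in EBC1-R and 6.60 in EBC1. The largest differences of this list were -0.27 for AZU1, -0.23 for CMA1 and 0.21 for GZMH.

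Among the cysteine proteases, 0 of 13 genes differed 2-fold, with a median of 0.17. CTSL, a target of SERPINB3 and SERPINB13, was at 9.34 in EBC1-R and 8.66 in EBC1, and CTSS was at 5.86 in EBC1-R and 5.12 in EBC1. Their differences of 0.68 and 0.74 are smaller than the 2.08 of SERPINB3. CTSK was listed at 5.99 on both arrays, and CTSC was 1.67-fold lower.

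Of 15 kallikreins, secreted serine proteases of epithelium, 1 was 2-fold lower, KLK6, at 9.96 in EBC1-R and 11.27 in EBC1, and KLK10 differed by -0.59. Of 17 further serine proteases, most of them but not PRSS22 membrane-anchored, 1 was 2-fold lower. This was PRSS22, at 8.13 in EBC1-R and 9.90 in EBC1. PRSS8 and TMPRSS4 had differences of -0.79 and -0.77. In both lists 0 genes were 2-fold higher in EBC1-R.

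The complement proteases that SERPING1 inhibits included 1 of 5 that was 2-fold higher, C1S, at 6.79 in EBC1-R and 5.40 in EBC1. C1R was at 7.14 in EBC1-R and 6.70 in EBC1. SERPING1 itself was 1.30-fold lower, opposite in direction to both. C1RL, with a difference of 0.38, was higher too, whereas MASP1 and MASP2 were lower, at -0.04 and -0.18.

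Among 11 receptors and cofactors, 3 were 2-fold higher, beside 1.26% of all genes. None of the 3 is a clearance receptor, and all 3 work in protein folding or collagen modification in the endoplasmic reticulum. P4HA1, a collagen prolyl hydroxylase subunit, was at 10.97 in EBC1-R and 9.45 in EBC1. PDIA6, a disulfide isomerase, was 2.14-fold and HSPA5, the chaperone BiP, 2.09-fold higher. SERPINH1, the collagen chaperone of the same compartment, differed by -0.04. The clearance receptor LRP1, which takes up serpin and protease complexes, was at 7.90 in EBC1-R and 7.32 in EBC1. Its difference of 0.58 was the largest among the receptors of the list.

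Among 32 other protease inhibitors, 2 were 2-fold higher and 1 was 2-fold lower, with a median of -0.08. SLPI and PI3, secreted inhibitors of neutrophil elastase that are not serpins, were 6.22-fold and 2.49-fold higher in EBC1-R. SLPI was at 10.25 in EBC1-R and 7.61 in EBC1, and PI3 at 7.73 in EBC1-R and 6.41 in EBC1. TFPI2, an inhibitor of plasmin and related proteases, was at 8.13 in EBC1-R and 9.16 in EBC1. In the serpins and in this list alike, a few members differed strongly while the median stayed near that of all genes.

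In the list of genes known to regulate clade B serpins or work with them, 1 of 11 was 2-fold higher, the TGF-beta receptor TGFBR1, at 8.79 in EBC1-R and 7.61 in EBC1. TGFBR2 was 1.58-fold lower. The list on HGF, the ligand of MET, and its activation also holds MET itself and MST1, which is not part of that activation. The 6 genes of the list differed by at most 0.28, in SPINT1, with MST1 at -0.18 and HGFAC at -0.15.

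**Figure D4:**
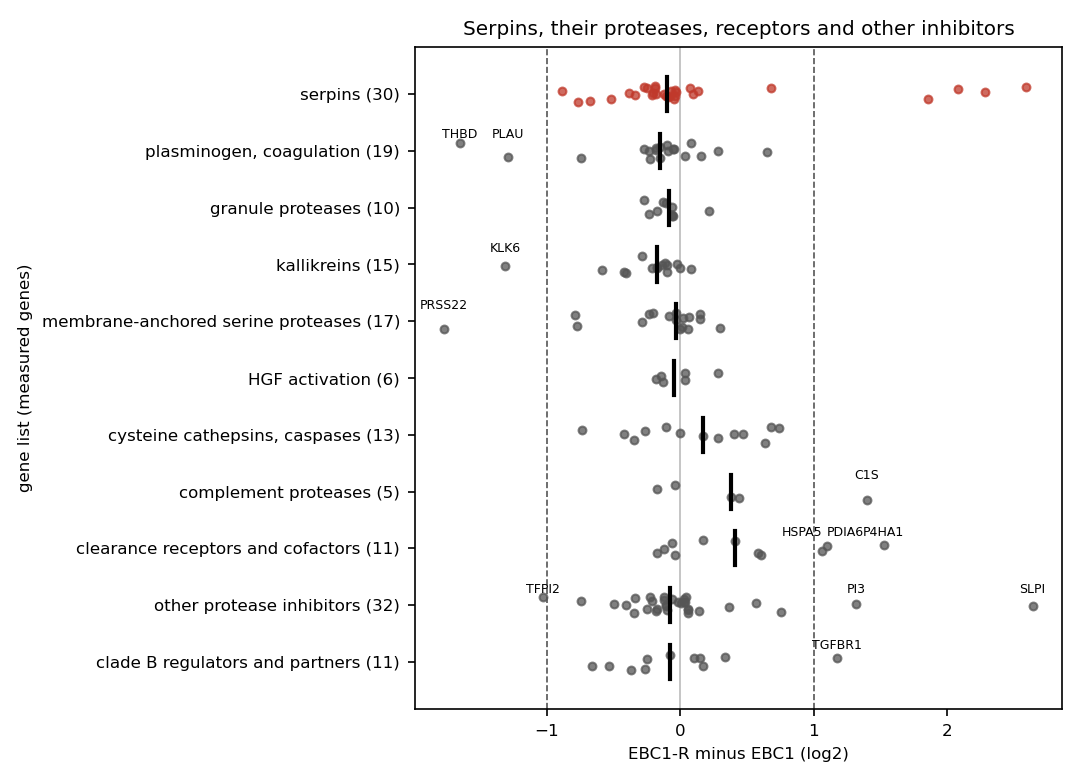
Difference between EBC1-R and EBC1 (log2, horizontal axis) of each serpin (red) and of each measured gene of 10 lists of proteases, receptors and inhibitors (grey), with a black line at each median and dashed lines at 2-fold; the number of genes is in brackets, and named genes of the lists are those at least 2-fold different. PLAU, KLK6 and PRSS22 lie on the left, and 4 serpins, SLPI and PI3 lie on the right.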

How the data were processed

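Expression was measured on 1 EBC1-R array and 1 EBC1 array from total RNA made into biotin-labelled cDNA, per the labels' protocols. The authors deposited 1 value per probe set, taken here as a log2 intensity because the values ran from 4.22 to 14.22 for EBC1-R and from 4.21 to 14.12 for EBC1. For background correction, summarization, normalization and log base no source used here gives a method. Both columns had nearly the same median, and such scaling removes a change shared by most genes. Of 28869 probe sets, 19310 named 1 gene in the platform annotation, 1752 named several and 7807 none. Symbols followed the RefSeq gene table (GRCh38.p14), which held 19279 of the 19310. Values were averaged per gene, which gave 18377 genes. Members were symbols of the form SERPIN, clade letter and number, without genes that RefSeq types as pseudogenes. The members, the gene lists and the settings were chosen with earlier results of these data known. All members were named. In each list of proteases, receptors and inhibitors, every gene at least 2-fold different was named, with up to 3 genes of the largest difference where there were fewer, and proteases known to be bound by a described serpin were added. Marker lists are given by their ranges, with some defining markers chosen after their values were seen. Differences are log2 EBC1-R minus log2 EBC1, called at 1 log2 unit. With 1 array per group there was no test and no replicate error, and the number of arrays limits the precision. No filter on low values was set, because no detection calls were used. Promoter sequences were RefSeq's, and promoters were aligned with Biopython 1.88. Analysis used Python 3.11.15, pandas 2.3.3 and statsmodels 0.14.6, and the counting was tested on simulated data. Alternatives were other scalings, a pseudocount of 16, the brightest probe set, probe sets of several genes, filters on level and thresholds of 1.5-fold and 3-fold.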

Additional observations from a re-analysis of the deposited data

How the results depend on the processing

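The 4 serpins at least 2-fold higher and the 0 at least 2-fold lower in EBC1-R were counted alike under quantile normalization, median centring, lowess and a pseudocount of 16. The brightest probe set and probe sets of several genes could change nothing, because each serpin has 1 probe set and no probe set of several genes names a serpin. Among the 6 serpins whose mean level reached the median of gene means, 7.28, 0 were 2-fold higher and the median difference was -0.36. Among the 8 whose higher level reached the median of the genes' higher levels, 7.41, 2 were 2-fold higher. These 2, SERPINB7 and SERPINA3, passed only through EBC1-R, at 8.26 and 8.13 against 5.67 and 6.28 in EBC1. This filter therefore cannot check their increase. The share of all genes past 2-fold was not counted under either filter on level. At 1.5-fold, 3 were lower. The pseudocount gave 2.27 for SERPINB7, 1.84 for SERPINB4, 1.66 for SERPINA3 and 1.65 for SERPINB3. The median over all serpins was otherwise between -0.12 and -0.07. Moves were judged against 0.15, the pooled SD of differences between probe sets of the same gene, since no serpin has a second probe set. Chosen after the data were seen, SERPINA2 as a member and SERPINB3 with SERPINB4 as 1 gene gave counts of 4 and 3. No paired analysis was possible because each line has 1 array.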

Other observations

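Serpin pseudogenes with a probe set of their own differed little between the lines. SERPINA2, which lies beside SERPINA1 and which RefSeq types as a transcribed pseudogene, was at 5.54 in EBC1-R and 5.71 in EBC1. SERPINA13P, beyond the called gene SERPINA3 on chromosome 14, was at 5.74 in EBC1-R and 5.79 in EBC1. SERPINB9P1, next to SERPINB9 on chromosome 6, was at 6.89 in EBC1-R and 6.81 in EBC1, a difference of 0.08 beside -0.68 for SERPINB9.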
